A study of Mus musculus with 8 samples.

Results

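Fatty acid uptake and oxidation was described with 41 genes in the ventricles of mice after myocardial infarction (MI). The genes were named as a list, from the entry of fatty acids into the cell to their oxidation in mitochondria, their storage, and the nuclear receptors that control the pathway. All 41 genes had a retained probe, among 15152 genes with one on the array. Cardiac RNA was taken 24 hours after surgery from 4 MI mice, in which the anterior interventricular artery was permanently occluded, and from 4 sham-operated mice, which underwent the same thoracotomy without ligation. All 8 mice were adult males of the C57BL\6 background. Both groups were anesthetized with isoflurane and were examined by FDG-PET, for which they received Acipimox, a drug that inhibits lipolysis in adipose tissue and lowers circulating fatty acids. Each array therefore measured fatty acid genes in a mouse given an antilipolytic drug, and no group without the drug was on the arrays. The labels name the tissue as ventricles and the methods describe homogenization of the excised heart, so that infarcted and remote tissue of 1 mouse were in the same extract. Each array held the RNA of 1 mouse.

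Fatty acids are the main fuel of the adult heart. They are released from circulating lipoproteins by lipoprotein lipase on the capillary wall, enter the cardiomyocyte through CD36 and fatty acid transport proteins, and are bound to coenzyme A and then to carnitine to pass the inner mitochondrial membrane. Each turn of beta-oxidation in the mitochondrial matrix shortens the chain by a unit of acetyl-CoA and hands electrons to the respiratory chain. Genes of the pathway are controlled by the peroxisome proliferator-activated receptors (PPARs), which bind fatty acids and act as heterodimers with retinoid X receptors, by the estrogen-related receptors, and by their coactivator PGC-1alpha.

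All 8 arrays shared 1 slide and 1 scan, and each of its 2 rows held 2 MI and 2 sham-operated mice. The share of spots well above background was 58.6% on the lowest array and 66.4% on the highest. All 41 genes were well above background on all 8 arrays, and no probe of theirs was saturated. Values are log2 signals after removal of the shift that each array showed in its spike-in RNA, which was added to a fixed amount of total RNA. Scaling each array to its 75th percentile instead moved all fold changes by -0.13 on the log2 scale, from a median over all retained probes of 0.11 to one of -0.022. Results under that scaling are given beside the spike-in values, because many calls of the 41 genes differed between them. MI replicate 2 and sham replicate 2 stood apart after spike-in scaling: MI replicate 2 held the lowest MI value of 37 of the 41 genes, and sham replicate 2 the lowest sham value of 39. After 75th percentile scaling these counts were 6 and 23. Signals of different probes have no common scale, and levels are therefore compared between mice and not between genes.

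Angptl4, which encodes a secreted inhibitor of lipoprotein lipase, was the single gene of the 41 called higher in MI mice after spike-in scaling. No gene was called lower. Of all 34038 retained probes, 5.41% were called in either direction by limma at an adjusted p under 0.05, 4.69% as higher and 0.723% as lower in MI mice. Most of the 41 genes nevertheless lay slightly below the sham mean: 31 (75.6%) had a negative and 10 a positive log2 fold change, where 37.3% of all retained probes and 723 of the 1445 at least as bright as the median of the 41 genes were negative, and the median was -0.18 beside 0.11 over all retained probes. At an unadjusted p under 0.05, limma gave 6 of the 41 genes. The share of all retained probes at that threshold is not given, so this count has no comparison. The signals of MI and sham-operated mice did not overlap for Angptl4, which was higher, and for Etfa, which was lower, where 7.51% of the 33865 probes with a value on all arrays did not overlap as higher and 2.79% as lower.

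After 75th percentile scaling, 10 of the 41 genes (24.4%) were called lower and 3 (7.32%) higher, where 17.5% of the retained probes were called, 8.84% lower and 8.70% higher. The genes called lower were Cpt1b, Cpt2, Mlycd, Acadm, Hadhb, Eci2, Decr1, Etfa, Etfdh and Acot1, with log2 fold changes between -1.34 and -0.36 and limma adjusted p between 0.0118 and 0.0434. The genes called higher were Angptl4, Ucp2 and Ppard, with adjusted p between 0.0183 and 0.0230. Over all alternatives and left-out mice, apart from the normexp correction, in which limma gave all probes the same SE, the adjusted p of these genes lay between 0.0066 and 0.911 for those called lower and between 0.000407 and 0.393 for those called higher. All ranges of adjusted p given below are over these settings. The median log2 fold change of the 41 genes was -0.31 beside -0.022 over all retained probes, and 33 genes (80.5%) were negative, where 52.6% of all retained probes and 72.9% of the 1445 probes at least as bright as the median of the 41 genes were negative too. Groups did not overlap as lower for 16 genes (39.0%) and as higher for 3, where 12.7% and 11.0% of the probes did not. With each of the 8 mice left out in turn, the number of the 41 genes called lower was 9 without MI replicate 1, 10 without sham replicate 1, 5 without MI replicate 4 or sham replicate 2, 4 without sham replicate 3, 2 without MI replicate 2, and 1 without MI replicate 3 or sham replicate 4. These were not in every case the same genes. Of the 10 genes, Cpt2 was called in all 8 of these fits, Mlycd and Etfa in 5, Decr1 and Etfdh in 4, Cpt1b in 3, Acot1 in 2, and Acadm, Hadhb and Eci2 in 1, and Eci1, Etfb and Acot2, which are not among the 10, were each called lower in 1.

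**Figure D1:**
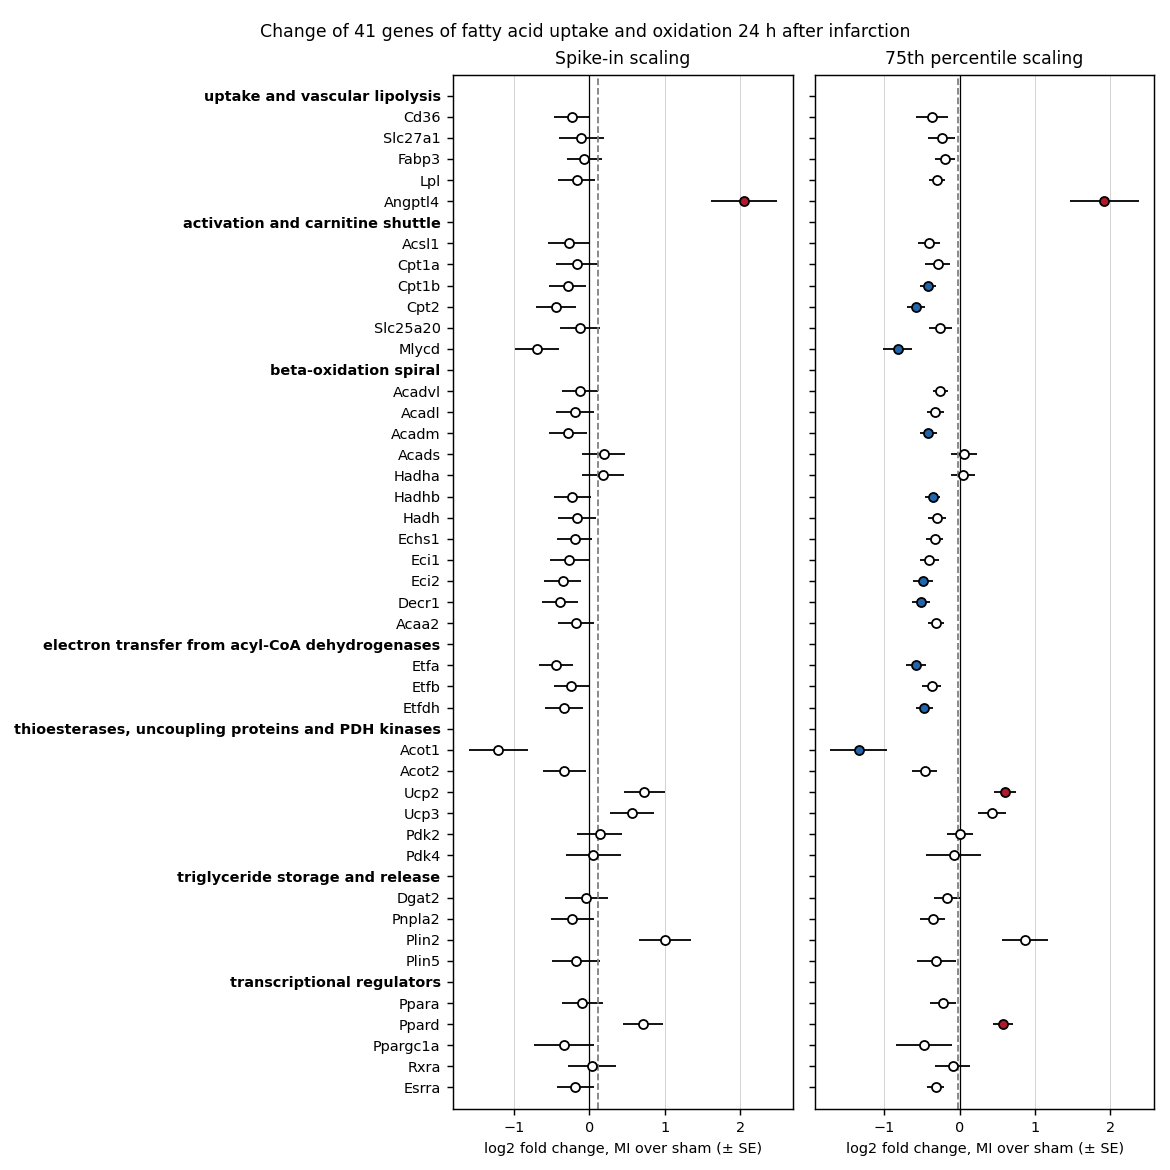
Log2 fold change of MI over sham-operated mice (horizontal axis, with standard error, n = 4 each) for the 41 genes by role, after spike-in scaling (left) and 75th percentile scaling (right). Filled points have a limma adjusted p under 0.05 (red higher, blue lower), open points do not, and the dashed line marks the median of all retained probes. Angptl4 is filled in both panels, and 10 lower genes and 2 more higher genes are filled at the right.

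The 41 genes are bright, with a median log2 signal of 14.79 that lies at the 95.8th percentile of all retained probes. Among the 1445 retained probes at least as bright as that median, the median log2 fold change was -0.00065 after spike-in scaling and -0.13 after 75th percentile scaling. Of these probes, 0.00% and 4.22% were called lower and 0.900% and 7.54% higher under the 2 scalings.

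In each mouse, the median of the 41 genes relative to the sham mean was 0.16, -0.61, 0.026 and -0.29 in MI mice 1 to 4 and 0.16, -0.45, 0.23 and 0.047 in sham-operated mice 1 to 4 after spike-in scaling, and the groups overlapped. After 75th percentile scaling the medians were -0.14, -0.33, -0.31 and -0.46 in MI mice 1 to 4 and -0.00063, -0.13, 0.016 and 0.10 in sham-operated mice 1 to 4. All 4 MI mice then lay below all sham-operated mice, with MI replicate 1 just below sham replicate 2. The spread within groups was smaller with this scaling: the median SD of the 41 genes was 0.39 among MI and 0.36 among sham-operated mice after spike-in scaling, and 0.17 and 0.20 after 75th percentile scaling.

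**Figure D2:**
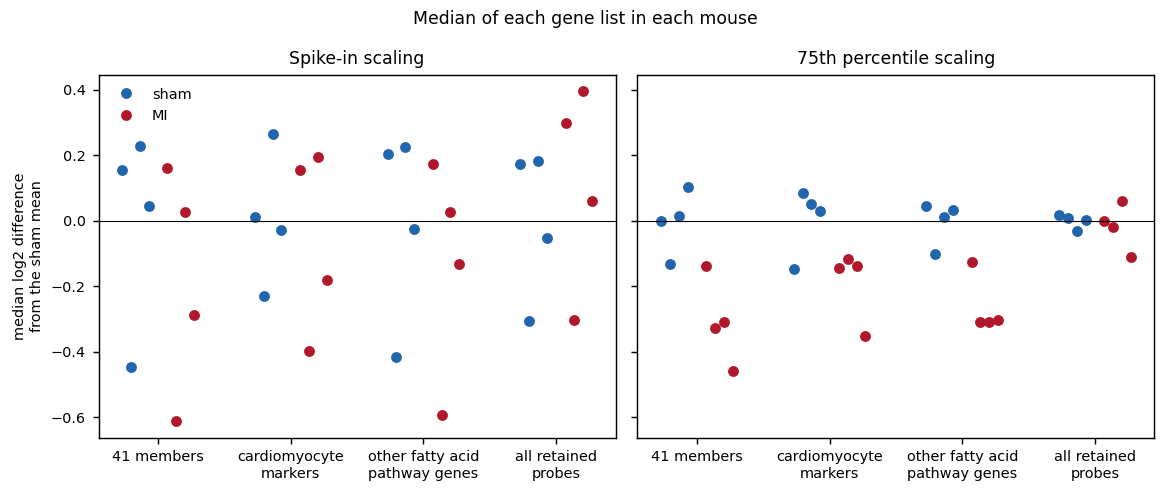
Median log2 difference from the sham mean (vertical axis) in each sham-operated mouse (blue) and MI mouse (red), for the 41 genes, 15 cardiomyocyte markers, 75 further genes of fatty acid metabolism and all retained probes, after spike-in scaling (left) and 75th percentile scaling (right). Points stand for replicates 1 to 4 from left to right. At the right, the MI points of the 41 genes, between -0.46 and -0.14, all lie below the sham points.

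**Figure D3:**
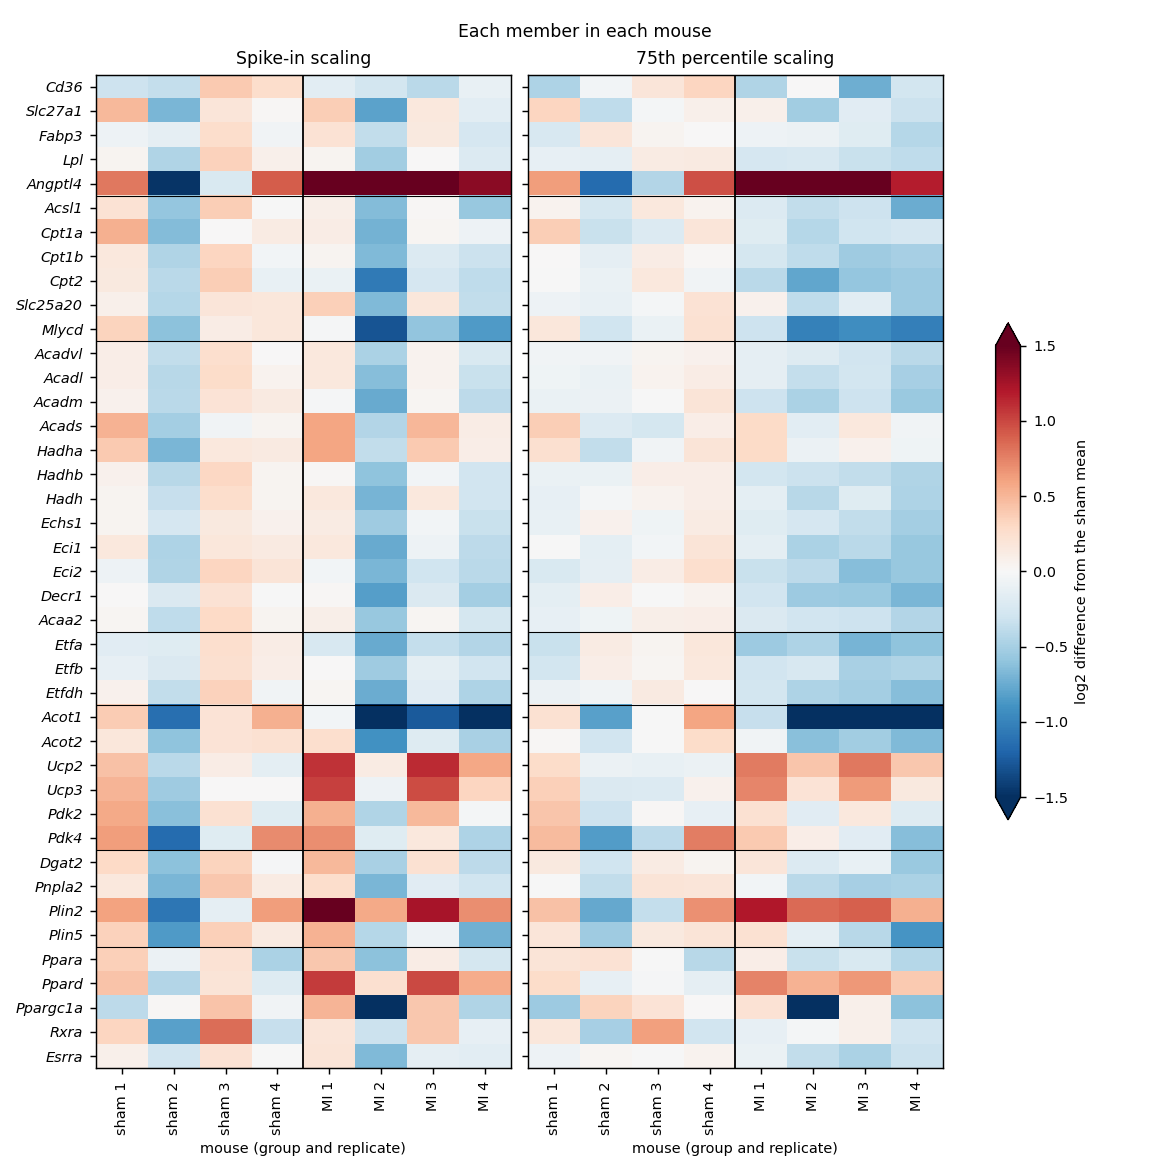
Log2 difference from the sham mean of each of the 41 genes (rows, in order of role) in each mouse (columns) after spike-in scaling (left) and 75th percentile scaling (right), with colours saturating at 1.5 in either direction. The column of MI replicate 2 is blue for most genes at the left and less so at the right, and Angptl4, Plin2, Ucp2, Ppard and Acot1 keep their colour in both panels.

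Cardiomyocytes express this pathway strongly, and in whole ventricles fewer cardiomyocytes and less RNA per cardiomyocyte cannot be told apart. Of 15 cardiomyocyte markers (such as Myh6, Tnnt2, Tnni3 and Ttn), all well above background, 0 were called by limma after spike-in scaling, and their median log2 fold change was -0.065. With 75th percentile scaling, 1 was called lower (Pln) and their median was -0.19. On the log2 scale, the summed marker signal was 21.39 to 21.98 over MI mice, and 21.55 to 22.00 over sham-operated mice. Subtracting the marker median of the same mouse from the median of the 41 genes removes any scaling of the array. The difference was 0.0071, -0.21, -0.17 and -0.11 in MI mice 1 to 4 and 0.15, -0.22, -0.037 and 0.073 in sham-operated mice 1 to 4. These ranges overlapped, and the group means differed by -0.11. The part of cardiomyocyte RNA in the values of the 41 genes was not tested further.

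Markers of other cell types also moved. Of 10 neutrophil markers, 7 were higher in MI mice (limma adjusted p from 3.28e-07 to 3.04e-05), the list median was 2.91 on the log2 scale, and their summed signal was 17.95 to 18.48 over MI mice, and 16.24 to 16.89 over sham-operated mice. Of 10 monocyte and macrophage markers, Ccr2, Cd14 and Msr1 were higher, while 4 had a negative log2 fold change and the list median was 0.18. Their summed signal overlapped between the groups, at 14.09 to 14.63 over MI mice, and 13.71 to 14.32 over sham-operated mice. None of 8 adipocyte markers was called after spike-in scaling, where their summed signal overlapped between the groups. Under 75th percentile scaling Cidea and Aqp7 were called lower, and the sum was 13.49 to 14.02 over MI mice, below its sham range of 14.07 to 14.22. Ucp1, which defines brown adipocytes, had 0 arrays with a signal well above background. No marker of 10 fibroblast and 9 endothelial cell markers was called after spike-in scaling, and Fap was called lower and Pecam1 higher after 75th percentile scaling. The summed fibroblast signal was then 15.90 to 16.56 over MI mice, below its sham range of 16.70 to 17.06. The summed signal of 5 atrial markers was low in sham replicate 4, at 15.22 against 18.08 to 18.90 in MI mice, and none of them was called. Of 9 listed skeletal muscle markers, 5 were retained. Acta1 was called higher, the other 4 were not called, and the list median was 0.26 after spike-in scaling. The part of these cell types in the values below was not tested.

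Promoter sequences were taken from RefSeq (GRCm38.p6), as the 250 bases before and the 50 bases from each start site. Of the 41 genes, 35 were matched by symbol, and Angptl4, Lpl, Cpt1b, Decr1, Dgat2 and Acaa2 were not. The windows were searched on both strands for AGGTCA, the core site that PPARs, retinoid X receptors and estrogen-related receptors bind, for the DR1 element of a PPAR with a retinoid X receptor, which is AGGTCA, any 1 base and AGGTCA again, and for the extended site TCAAGGTCA of estrogen-related receptors. Both longer motifs contain the core site. The core site was found for 9 of the 35 genes (25.7%): Rxra, Acadm, Plin2, Cd36, Ucp3, Echs1, Acadvl, Plin5 and Cpt1a. It was found for 18.1% of all 27025 genes with a promoter in the table, and in 16.3% of all 32851 promoters. The DR1 element was found for 0 of the 35 genes (in 0.0396% of all promoters) and the extended site for 0 (in 0.423%), which says only that these letters are not in these windows. The windows of Plin2, Ucp3 and Cpt1a are shown because the values of these genes are described below and their core sites lie at different distances from the start site. Capitals mark the core site, which reads TGACCT where it lies on the opposite strand.
Plin2 (chr4:86670010-86670309, minus strand): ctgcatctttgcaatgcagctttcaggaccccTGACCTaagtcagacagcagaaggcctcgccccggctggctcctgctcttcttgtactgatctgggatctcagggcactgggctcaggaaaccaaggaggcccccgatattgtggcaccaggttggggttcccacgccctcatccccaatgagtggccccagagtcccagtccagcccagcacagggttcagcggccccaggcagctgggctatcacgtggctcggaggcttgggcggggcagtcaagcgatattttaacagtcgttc
Ucp3 (chr7:100472741-100473040, plus strand): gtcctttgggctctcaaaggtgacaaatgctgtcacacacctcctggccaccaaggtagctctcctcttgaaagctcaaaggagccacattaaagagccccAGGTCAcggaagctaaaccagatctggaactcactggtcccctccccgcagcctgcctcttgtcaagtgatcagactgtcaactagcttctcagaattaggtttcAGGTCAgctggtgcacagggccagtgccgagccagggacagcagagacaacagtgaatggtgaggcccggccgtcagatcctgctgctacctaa
Cpt1a (chr19:3323051-3323350, plus strand): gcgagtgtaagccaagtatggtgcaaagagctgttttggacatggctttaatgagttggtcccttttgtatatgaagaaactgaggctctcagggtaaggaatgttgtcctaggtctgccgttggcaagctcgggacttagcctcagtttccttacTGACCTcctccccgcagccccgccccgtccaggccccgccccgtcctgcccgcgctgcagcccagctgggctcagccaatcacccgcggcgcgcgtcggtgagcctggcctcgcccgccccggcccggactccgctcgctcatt
The core site begins 218 bases before the start site in Plin2, 149 and 44 bases before it in Ucp3, and 94 bases before it in Cpt1a.

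Of 5 genes of uptake and vascular lipolysis, Angptl4 rose and the other four were not called under either scaling. Angptl4 signal was 14.80, 13.80, 14.86 and 13.56 in MI mice 1 to 4 and 12.99, 10.74, 11.97 and 13.11 in sham-operated mice 1 to 4. The groups did not overlap, and sham replicate 2 was the lowest of all 8 mice. The means were 14.25 ± 0.67 in MI mice against 12.20 ± 1.10 in sham-operated mice (SD, n = 4 each), a 4.14-fold higher signal in MI mice (log2 fold change 2.05 ± 0.44, SE; limma adjusted p = 0.00947; exact two-sided permutation p = 0.0286, the smallest that 4 against 4 mice allow). The fold change was 1.92 after 75th percentile scaling. It passed the threshold whichever mouse was left out after spike-in scaling, with values between 1.56 (without sham replicate 2) and 2.35. With 75th percentile scaling the call was lost without MI replicate 1, 2 or 3 or without sham replicate 3. With all mice and spike-in scaling it was lost without the detection filter (limma adjusted p = 0.0940), with the vsn model (0.0832) and in the test without moderation (0.231). Over all alternatives and left-out mice the adjusted p lay between 0.000407 and 0.231.

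The other genes of uptake lay close to the sham mean. Lpl, the lipase that Angptl4 inhibits, had a log2 fold change of -0.17 ± 0.24, and its signal was 17.40, 16.83, 17.36 and 17.14 in MI mice 1 to 4 and 17.39, 16.90, 17.69 and 17.43 in sham-operated mice 1 to 4. The groups overlapped, and they did not after 75th percentile scaling, where the fold change was -0.30 ± 0.11 (limma adjusted p = 0.0931, with a range of 0.078 to 0.954 over all alternatives and left-out mice). Cd36, the main fatty acid translocase of the cardiomyocyte membrane, had a log2 fold change of -0.23 ± 0.24. The values of Slc27a1, a fatty acid transport protein, and of Fabp3, the fatty acid binding protein of the cardiomyocyte cytosol, were -0.11 ± 0.30 and -0.065 ± 0.23. Each of these SE values was about as large as its fold change or larger.

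All 6 genes of activation and the carnitine shuttle had a negative log2 fold change, with a median of -0.28, and none was called after spike-in scaling. Under 75th percentile scaling 3 were called lower: Mlycd, Cpt2 and Cpt1b. Mlycd encodes malonyl-CoA decarboxylase, which removes the malonyl-CoA that inhibits carnitine palmitoyltransferase 1. Its signal was 14.95, 13.67, 14.37 and 14.11 in MI mice 1 to 4 and 15.30, 14.35, 15.08 and 15.14 in sham-operated mice 1 to 4. MI mice 2, 3 and 4 were the lowest except for sham replicate 2, which lay between MI replicates 3 and 4, and MI replicate 1 lay within the sham range, so that the groups overlapped. The means were 14.28 ± 0.53 in MI mice against 14.97 ± 0.42 in sham-operated mice (SD, n = 4 each), with a log2 fold change of -0.69 ± 0.29 (limma adjusted p = 0.225; exact permutation p = 0.0857). With 75th percentile scaling it was -0.82 ± 0.19 with groups that did not overlap (limma adjusted p = 0.02, with a range of 0.0066 to 0.475 over all alternatives and left-out mice).

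Cpt2, the carnitine palmitoyltransferase of the inner membrane, is described after its values were seen, because its call after 75th percentile scaling held whichever mouse was left out. Its scaled signal was 14.48, 14.10, 14.30 and 14.33 in the MI mice and 14.87, 14.79, 15.04 and 14.83 in the sham-operated mice. Every MI mouse lay below every sham-operated mouse, with a log2 fold change of -0.58 ± 0.12 (limma adjusted p = 0.0118), beside -0.45 ± 0.27 after spike-in scaling (adjusted p = 0.434), and the adjusted p over all alternatives and left-out mice ranged from 0.0115 to 0.911. A second, dimmer Cpt2 probe had a log2 fold change of 0.22 ± 0.34, of the opposite sign. Cpt1b, the muscle form of the outer-membrane enzyme that sets the rate of entry, had values of -0.29 ± 0.25 and, after 75th percentile scaling, -0.42 ± 0.11. Cpt1a, the liver form, had -0.16 ± 0.28. Acsl1, the main long-chain acyl-CoA synthetase of the heart, had -0.28 ± 0.27, and Slc25a20, the carnitine-acylcarnitine carrier, had -0.13 ± 0.27. Dimmer probes of Cpt1a and Acsl1 had values of 0.017 and 0.14, against the sign of the brighter probes.

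Of 12 genes of the beta-oxidation spiral, 10 had a negative and 2 a positive log2 fold change, and none was called after spike-in scaling. Decr1, the mitochondrial dienoyl-CoA reductase needed for polyunsaturated fatty acids, had the largest fold change. Its signal was 16.67, 15.83, 16.44 and 16.15 in MI mice 1 to 4 and 16.67, 16.45, 16.87 and 16.65 in sham-operated mice 1 to 4. MI mice 2 and 4 lay below all sham-operated mice, MI replicate 3 was just under the lowest of them, and MI replicate 1 lay within their range. The means were 16.27 ± 0.36 in MI mice against 16.66 ± 0.17 in sham-operated mice (SD, n = 4 each), with a log2 fold change of -0.39 ± 0.24 (limma adjusted p = 0.468). Under 75th percentile scaling the groups did not overlap and the fold change was -0.52 ± 0.12 (adjusted p = 0.019, with a range of 0.0171 to 0.696 over all alternatives and left-out mice). A dimmer Decr1 probe had -0.14 ± 0.28.

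The acyl-CoA dehydrogenases catalyse the first step for different chain lengths. Acadvl for very long chains had a log2 fold change of -0.12 ± 0.24, Acadl for long chains -0.19 ± 0.25, and Acadm for medium chains -0.28 ± 0.25. Acads for short chains had the only positive value among them, 0.19 ± 0.28, and it was 0.059 ± 0.17 after 75th percentile scaling. Acadm was called lower with that scaling, at -0.41 ± 0.11. In the later steps, Echs1, the enoyl-CoA hydratase, had -0.20, Hadh, the short-chain hydroxyacyl-CoA dehydrogenase, -0.17, and Acaa2, the thiolase, -0.18, each with an SE between 0.23 and 0.25. The enoyl-CoA isomerases Eci1 and Eci2, which handle unsaturated fatty acids, had -0.27 ± 0.26 and -0.36 ± 0.25, and Eci2 was called lower after 75th percentile scaling at -0.49 ± 0.14.

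Hadha and Hadhb encode the alpha and beta subunits of the mitochondrial trifunctional protein, which carries out the later steps of the spiral for long chains. Their signals went to opposite sides of the sham mean, at 0.18 ± 0.28 for Hadha and -0.23 ± 0.24 for Hadhb, and Hadhb was called lower after 75th percentile scaling (-0.36 ± 0.10). The genes lie head to head, with 273 bases between their start sites in the RefSeq table (GRCm38.p6), and their promoter windows are shown for this arrangement. Capitals mark the 228 bases that both windows share, each read from its own strand.
Hadha (chr5:30154931-30155230, minus strand): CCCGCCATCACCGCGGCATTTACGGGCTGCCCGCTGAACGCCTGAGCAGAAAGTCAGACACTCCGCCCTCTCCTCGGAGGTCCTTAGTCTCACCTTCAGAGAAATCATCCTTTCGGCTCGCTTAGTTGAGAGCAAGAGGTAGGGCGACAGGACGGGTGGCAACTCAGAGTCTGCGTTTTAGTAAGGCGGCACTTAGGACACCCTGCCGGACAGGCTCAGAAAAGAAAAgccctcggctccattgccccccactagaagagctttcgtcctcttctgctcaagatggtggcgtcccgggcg
Hadhb (chr5:30155003-30155302, plus strand): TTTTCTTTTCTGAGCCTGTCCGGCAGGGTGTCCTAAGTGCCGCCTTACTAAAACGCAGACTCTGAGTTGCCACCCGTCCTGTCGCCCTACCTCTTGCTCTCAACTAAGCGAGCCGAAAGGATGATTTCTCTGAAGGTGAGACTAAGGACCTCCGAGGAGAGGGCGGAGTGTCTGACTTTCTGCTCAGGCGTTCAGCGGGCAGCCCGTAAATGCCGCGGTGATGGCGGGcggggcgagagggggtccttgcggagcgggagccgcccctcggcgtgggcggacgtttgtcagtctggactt
The Hadha signal was 13.71, 12.75, 13.52 and 13.22 in MI mice 1 to 4 and 13.51, 12.43, 13.28 and 13.25 in sham-operated mice 1 to 4. The Hadhb signal was 17.04, 16.41, 16.98 and 16.73 in MI mice 1 to 4 and 17.08, 16.60, 17.33 and 17.06 in sham-operated mice 1 to 4. For both genes the MI and sham ranges overlapped.

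The 3 genes that pass electrons from the acyl-CoA dehydrogenases to ubiquinone all had a negative log2 fold change, with a median of -0.34. Etfa, the alpha subunit of the electron transfer flavoprotein, had a signal of 16.31, 15.80, 16.19 and 16.11 in MI mice 1 to 4 and 16.37, 16.36, 16.80 and 16.66 in sham-operated mice 1 to 4. Every MI mouse lay below every sham-operated mouse, MI replicate 1 by the smallest margin. The means were 16.10 ± 0.22 in MI mice against 16.55 ± 0.22 in sham-operated mice (SD, n = 4 each), with a log2 fold change of -0.45 ± 0.23 (limma adjusted p = 0.339; exact permutation p = 0.0286, the smallest possible). With 75th percentile scaling it was -0.58 ± 0.13 (adjusted p = 0.0188, with a range of 0.00744 to 0.633 over all alternatives and left-out mice), and a dimmer Etfa probe had -0.41 ± 0.23 after spike-in scaling. Etfb, the beta subunit, had -0.24 ± 0.23. Etfdh, the ubiquinone oxidoreductase, had -0.34 ± 0.25 and was called lower after 75th percentile scaling at -0.47 ± 0.11.

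Among thioesterases, uncoupling proteins and pyruvate dehydrogenase kinases, Acot1 had the lowest log2 fold change of the 41 genes and Ucp2 and Ucp3 had positive values, and none was called after spike-in scaling. Acot1, a cytosolic acyl-CoA thioesterase, had a signal of 13.70, 11.97, 12.49 and 12.01 in MI mice 1 to 4 and 14.13, 12.62, 13.96 and 14.29 in sham-operated mice 1 to 4. MI mice 2, 3 and 4 lay below all sham-operated mice, and MI replicate 1 lay among them. The means were 12.54 ± 0.81 in MI mice against 13.75 ± 0.76 in sham-operated mice (SD, n = 4 each), a 2.31-fold lower signal in MI mice (log2 fold change -1.21 ± 0.40; limma adjusted p = 0.0972; exact permutation p = 0.0571). Without MI replicate 1 the log2 fold change was -1.59 and without sham replicate 2 it was -1.58, and the adjusted p then passed the threshold (0.0120 and 0.0146). Under 75th percentile scaling it was -1.34 ± 0.38 (adjusted p = 0.0403, with a range of 0.012 to 0.405 over all alternatives and left-out mice). Acot2, the mitochondrial thioesterase, had -0.33 ± 0.28. Both genes are close paralogs, and their probes may share signal.

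The uncoupling proteins Ucp2 and Ucp3, carriers of the inner mitochondrial membrane that are encoded by neighbouring genes, had positive values. Ucp2 was called higher after 75th percentile scaling and is described after its values were seen. Its signal was 11.17, 10.22, 11.21 and 10.67 in MI mice 1 to 4 and 10.52, 9.69, 10.20 and 9.94 in sham-operated mice 1 to 4. MI mice 1, 3 and 4 lay above all sham-operated mice, and MI replicate 2 lay within their range. The log2 fold change was 0.73 ± 0.27 (limma adjusted p = 0.16) and 0.60 ± 0.14 after 75th percentile scaling (adjusted p = 0.023, with a range of 0.0168 to 0.393 over all alternatives and left-out mice). Ucp2 is also expressed in leukocytes, whose markers rose in the same mice, and their part in its value was not tested. Ucp3, which is largely restricted to muscle, had 0.56 ± 0.29, and a dimmer Ucp3 probe had -0.23 ± 0.50, of the opposite sign. Pdk4, a kinase that shuts off pyruvate dehydrogenase and a widely used PPAR target, had 0.053 ± 0.37, and -0.078 ± 0.36 after 75th percentile scaling. Its signal was 16.66, 15.79, 16.13 and 15.51 in MI mice 1 to 4 and 16.60, 14.82, 15.79 and 16.68 in sham-operated mice 1 to 4. Sham replicate 2 was the lowest and sham replicate 4 the highest of all mice, so that the sham range enclosed all MI mice. Pdk2, its constitutive relative, had 0.13 ± 0.30.

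Of 4 genes of triglyceride storage and release, none was called under either scaling. Plin2, a protein coating lipid droplets in most tissues, had a signal of 14.14, 13.21, 13.88 and 13.35 in MI mice 1 to 4 and 13.25, 11.56, 12.51 and 13.27 in sham-operated mice 1 to 4. MI mice 1, 3 and 4 lay above all sham-operated mice, and MI replicate 2 lay between sham replicate 3 and the highest sham values. The means were 13.65 ± 0.44 in MI mice against 12.65 ± 0.81 in sham-operated mice (SD, n = 4 each), a 2-fold higher signal (log2 fold change 1.00 ± 0.35; limma adjusted p = 0.122; exact permutation p = 0.0857). It was 0.87 ± 0.31 after 75th percentile scaling (adjusted p = 0.0853, with a range of 0.0447 to 0.403 over all alternatives and left-out mice). Without sham replicate 2 the log2 fold change was 0.64. Plin5, the droplet protein of oxidative tissues, had -0.18 ± 0.32. Pnpla2, the adipose triglyceride lipase that opens the breakdown of stored triglyceride, had -0.22 ± 0.28, and Dgat2, which makes triglyceride, had -0.041 ± 0.29.

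Of 5 transcriptional regulators, none was called after spike-in scaling, and Ppard was called higher after 75th percentile scaling. Ppard encodes PPAR-delta. Its signal was 10.98, 10.17, 10.93 and 10.50 in MI mice 1 to 4 and 10.36, 9.50, 10.13 and 9.74 in sham-operated mice 1 to 4. MI mice 1, 3 and 4 lay above all sham-operated mice, and MI replicate 2 lay between sham replicates 1 and 3. The means were 10.64 ± 0.38 in MI mice against 9.94 ± 0.39 in sham-operated mice (SD, n = 4 each), a 1.63-fold higher signal (log2 fold change 0.71 ± 0.27; limma adjusted p = 0.157; exact permutation p = 0.0571). It was 0.58 ± 0.13 after 75th percentile scaling (adjusted p = 0.0183, with a range of 0.0124 to 0.372 over all alternatives and left-out mice). Ppara, which encodes PPAR-alpha, had -0.092 ± 0.27. Esrra, the estrogen-related receptor alpha, had -0.19 ± 0.24, and Rxra, whose probe had the lowest signal of the 41, had 0.038 ± 0.32, and -0.093 ± 0.23 after 75th percentile scaling. Ppargc1a, which encodes PGC-1alpha, had -0.34 ± 0.40. Its signal was 13.30, 10.97, 13.19 and 12.33 in MI mice 1 to 4 and 12.39, 12.80, 13.21 and 12.73 in sham-operated mice 1 to 4. MI replicate 2 was far below all other mice, and without it the log2 fold change was 0.16, or -0.11 after 75th percentile scaling.

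**Figure D4:**
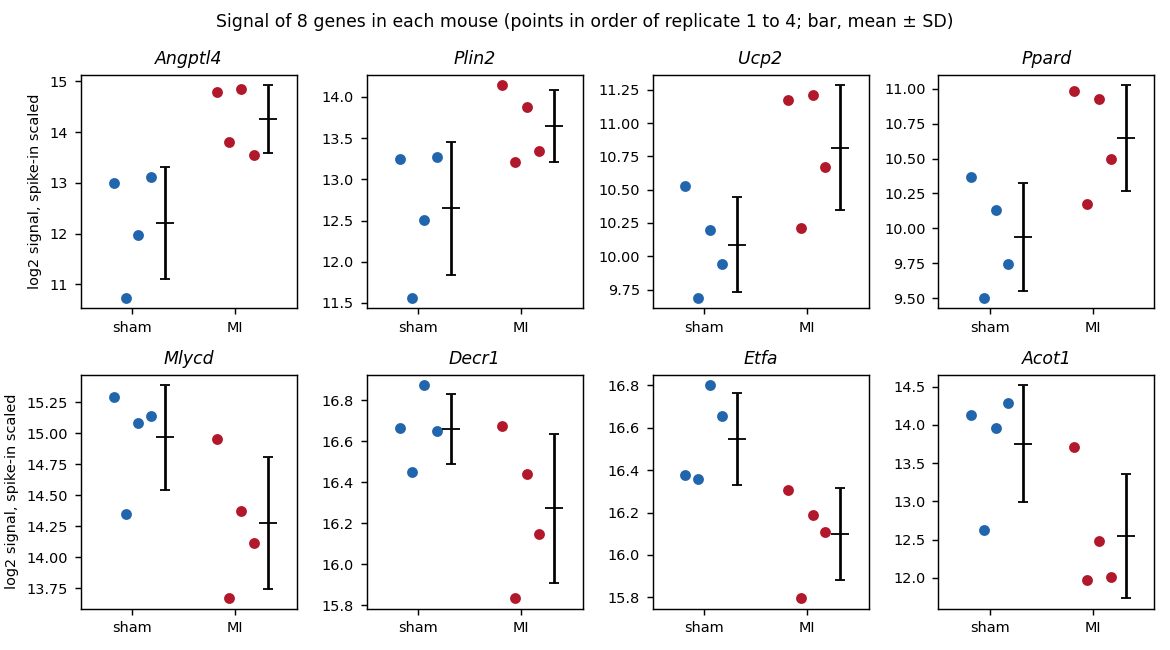
Log2 signal after spike-in scaling (vertical axis, a separate range for each gene) in each sham-operated mouse (blue) and MI mouse (red) for 8 genes, with mean ± SD (n = 4). Angptl4 and Etfa show groups that do not overlap, and in Plin2, Ucp2, Ppard, Mlycd, Decr1 and Acot1 at least 1 mouse lies within the range of the other group.

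The log2 ratio of a pair of genes within an array does not depend on the scaling of that array. Changes of this ratio were compared for 10 pairs of related genes, chosen after the values were seen, with exact two-sided permutation tests adjusted over the 10 pairs. Because of that choice, the p values of the ratios, adjusted or not, do not measure how often chance gives such changes. Ratios are given as differences from the sham mean. The ratio of Angptl4 to Lpl was 2.55, 2.12, 2.65 and 1.56 in MI mice 1 to 4 and 0.75, -1.01, -0.57 and 0.83 in sham-operated mice 1 to 4. It was higher by 2.22 in MI mice, and the groups did not overlap. The ratio of Plin2 to Plin5 was 0.97, 1.00, 1.31 and 1.42 in MI mice 1 to 4 and 0.26, -0.24, -0.50 and 0.49 in sham-operated mice 1 to 4. It was higher by 1.17, and again all MI mice lay above all sham-operated mice.

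The ratio of Ppard to Ppara was 0.64, 0.85, 0.88 and 0.82 in MI mice 1 to 4 and 0.076, -0.34, -0.014 and 0.28 in sham-operated mice 1 to 4, higher by 0.80 in MI mice without overlap. The ratio of Etfa to Etfb, both subunits of the same flavoprotein, was -0.25, -0.22, -0.21 and -0.15 in MI mice 1 to 4 and -0.050, 0.026, 0.013 and 0.011 in sham-operated mice 1 to 4. It was lower in every MI mouse than in any sham-operated mouse, with a change of -0.21. These 4 pairs had the smallest exact permutation p that 4 against 4 mice allow (0.0286), which was 0.0714 after adjustment over the 10 pairs. Neither value takes account of the choice of the pairs. Their direction and lack of overlap held in the authors' normalized values and under the normexp, quantile and vsn alternatives (exact permutation p = 0.0286 in each), and their direction held without each mouse in turn. The exact permutation p of Plin2 to Plin5 was 0.0571 without MI replicate 3 or 4.

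The ratio of Hadha to Hadhb was 0.57, 0.24, 0.43 and 0.39 in MI mice 1 to 4 and 0.33, -0.27, -0.15 and 0.087 in sham-operated mice 1 to 4. Its change was 0.41, and sham replicate 1 lay within the MI range (exact permutation p = 0.0571, adjusted 0.0952). The ratio of Acot1 to Acot2 was -0.29, -0.87, -1.07 and -1.25 in MI mice 1 to 4 and 0.21, -0.52, 0.0029 and 0.32 in sham-operated mice 1 to 4. Its change was -0.87 (exact permutation p = 0.0571, adjusted 0.0952), with MI replicate 1 within the sham range. The ratios of Ucp2 to Ucp3, Pdk4 to Pdk2, Cpt1b to Cpt1a and Eci2 to Eci1 changed by 0.17, -0.082, -0.13 and -0.086, with exact permutation p between 0.114 and 0.943 and groups that overlapped.

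**Figure D5:**
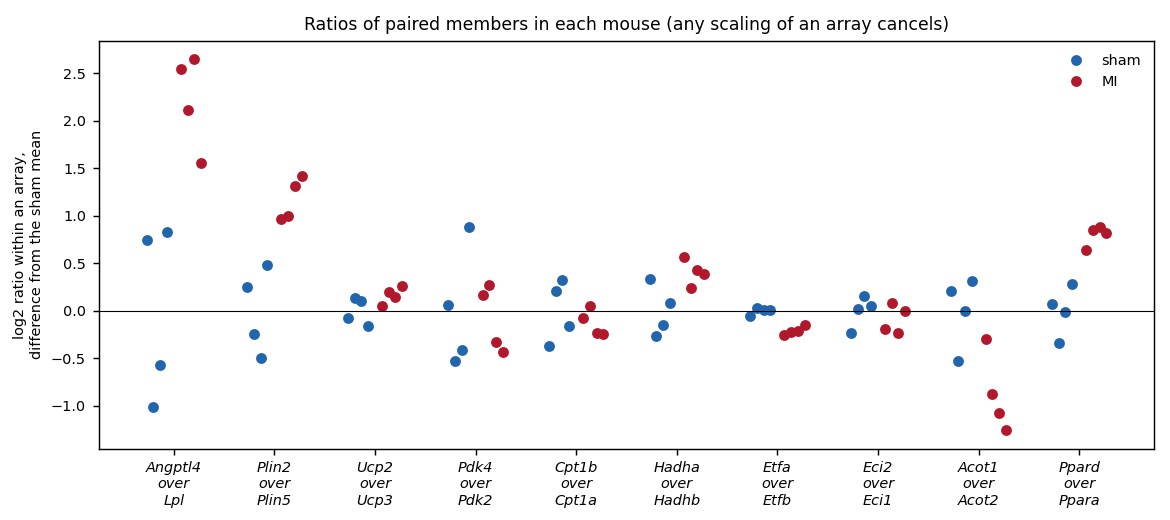
Log2 ratio of 10 pairs of genes within an array, as the difference from the sham mean (vertical axis), in each sham-operated mouse (blue) and MI mouse (red), with replicates 1 to 4 from left to right. The red points lie apart from the blue points for Angptl4 over Lpl, Plin2 over Plin5, Etfa over Etfb and Ppard over Ppara.

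Among 78 further genes of fatty acid metabolism, 75 had a retained probe. Slc27a6 and Abcd2 were not retained, and Mut had no probe named by a RefSeq transcript under that symbol. Of the 75 genes, 1 was called lower and 0 higher after spike-in scaling, with a median log2 fold change of -0.11 and 51 genes (68%) below 0. Among all retained probes, 0.723% were called lower and 4.69% higher, and 37.3% lay below 0.

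With 75th percentile scaling, 21 of the 75 genes were called lower and 2 higher, with a median of -0.24. Among all retained probes, 8.84% were then called lower and 8.70% higher, with a median of -0.022. By role, 1 of 7 genes of uptake and vascular lipolysis was called lower (Vldlr, a lipoprotein receptor, -0.80), 5 of 10 of activation and carnitine (the largest being Acacb, which makes malonyl-CoA at mitochondria, -0.73), and 6 of 12 of mitochondrial oxidation (the largest being Echdc3, -0.74). Of 11 peroxisomal genes 3 were called lower, with Pex11a, a peroxisome division protein, at -0.65. Of 12 genes of storage and release, Plin3, a further lipid droplet protein, was called lower at -0.96. Of 12 transcription factors and cofactors, Rxrg and Esrrg were called lower at -0.78 and -0.61, and of 7 genes of the pyruvate dehydrogenase complex and its regulators, Pdp1, a phosphatase, at -0.48. The genes called higher were the acyl-CoA synthetases Acsl4 (0.45) and Acsl5 (0.49).

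Within the rows of the slide, with 2 mice of each group in each, the median log2 fold change of the 41 genes after spike-in scaling was -0.092 in the first row and -0.30 in the second. The log2 fold change was negative for 25 genes in the first row and 32 in the second, and for 24 genes in both. The values over all retained probes within a row are not given, so these medians and counts have no comparison. Angptl4 was higher in MI mice in both rows, by 2.44 and 1.66, and Acot1 was lower in both, at -0.54 and -1.88. Plin2, Ucp2 and Ppard were higher and Mlycd, Cpt2, Decr1 and Etfa lower in both rows. Like Angptl4 and Acot1, these genes were picked for their values over all mice, and the rows are parts of the same mice. The same sign in both rows was also usual, for 32 of the 41 genes. Their agreement between rows is therefore not a separate test of their changes. Pdk4 went to opposite sides, at 0.52 and -0.41.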

How the data were processed

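Total RNA of each heart was labelled with Cy3 after a one-color spike mix was added, and was hybridized to Agilent mouse arrays. The deposited scanner files hold intensity values of each spot, which the authors extracted with Feature Extraction 11.0.1.1 (per the file headers). The deposited value table holds log2 values that the authors made with limma and vsn, after removing spots not above background and normalizing to the spike-in probes. Here, log2 processed signals were averaged over spots of a probe without outlier spots, and the shift of each array in 7 of 10 spike-in probes was subtracted. The resulting log2 fold changes differed from those of the deposited log2 table by at most 0.0167 over the 41 genes. Of 55681 probes, the 34038 well above background on at least 4 of 8 arrays were retained, and 26576 of all probes were named through RefSeq transcripts (GRCm38.p6 table). The array design gives mm9, and the coordinates printed are those of RefSeq promoter windows (GRCm38.p6), not of probes. The brightest retained probe stood for a gene, and 12 of the 41 genes had more than 1. Groups were compared with limma 3.58.1 (R 4.3.3), Benjamini-Hochberg adjustment over all retained probes and a threshold of 0.05. Single values were compared with exact two-sided permutation tests (Python 3.11.15, numpy 2.4.6). The scripts were tested on simulated data. There 200 probes were changed, in equal numbers by 2-fold and by 4-fold. In a single fit limma recovered 17% of the 2-fold and 84% of the 4-fold changes, with 5 false calls in all. Most 2-fold changes were thus missed in that test. Whether replicates were litter mates or shared cages was not given in the sources used here.

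The 41 genes, the further lists and the motifs were chosen with earlier results of these data known. Every gene is named in its role group, and full values are given for genes called after spike-in scaling or, in a group without any, for the gene with the largest fold change. From each list of further genes the called gene with the largest fold is named. Single results of a few of these genes are not reported here. Values shown for other genes were chosen after they were seen. Alternatives were the scaling (75th percentile, median, quantile, vsn, the deposited values), background correction (normexp, offset 50), detection filters, spot and probe rules, the test (unmoderated, and significance analysis of microarrays with 70 permutations, whose q-value stands with the adjusted p), array row or replicate number as a block, and leaving out each mouse. Replicate numbers were not used as pairs, since they are not tied to a shared litter or day. The number of arrays limits the precision.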

Additional observations from a re-analysis of the deposited data

Results flagged for a closer look

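Among 82 groups of 4 values, 1 for each of the 41 genes in MI and in sham-operated mice, 3 held a value whose gap to the nearest other value, divided by the range, was above Dixon's critical value for 4 samples. Chance gives about 5% of groups. All 3 were the lowest sham value and belonged to sham replicate 2 after spike-in scaling. Slc25a20 had a log2 signal of 11.98 there, against 12.49 to 12.59 in the other sham-operated mice. Eci1 had 15.60 there, against 16.20 to 16.23. Acot2 had 10.63 there, against 11.41 to 11.46. Sham replicate 2 was also the lowest sham-operated mouse for 39 of the 41 genes with this scaling, and for 23 after 75th percentile scaling.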

How the results depend on the processing

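The median log2 fold change of the 41 genes was negative under every alternative run, and 27 of the 41 genes kept their sign in all of them. Of 1353 values of the 41 genes under alternatives, 1184 kept their direction and their side of the threshold and 58 changed sign. The 75th percentile fits with a mouse left out or a block, the median scaling and the ratios were chosen after seeing the data. Compared with 1842 probes called after spike-in scaling, limma called 5973 with 75th percentile scaling (4802 with array row as a block and 3923 with a replicate block), 6029 with median scaling, 6173 with quantile normalization, 1005 without a detection filter, 4278 with a replicate block and 727 without moderation, and significance analysis of microarrays called 3103. Over 2-fold, 1516 were called, against 987 without a detection filter, 606 with normexp, 625 without moderation and 333 with vsn. Under normexp, limma gave practically all probes the same SE of 0.21, so that the spread of single probes did not enter the test.

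Of the 41 genes, 0 were called lower after spike-in scaling, 10 with 75th percentile scaling (5 with array row as a block, 3 with a replicate block), 10 with median scaling, 5 with quantile normalization, 2 with normexp, and 1 each with detection on all 8 arrays, with spots not above background missing and with a replicate block. Called higher were 1 after spike-in scaling, 3 with 75th percentile scaling and with either block on it, 3 with median scaling, quantile normalization or a replicate block, 4 with normexp, 2 with detection on all 8 arrays, and 0 without a detection filter, without moderation or with vsn. Of the further genes 1 was called lower, against 21 with 75th percentile scaling (17 with array row as a block, 15 with a replicate block), 20 with median scaling, 18 with quantile normalization, 6 with a replicate block, 4 with normexp, 2 with the deposited values or significance analysis of microarrays, and 0 without a detection filter, without moderation or with vsn. Higher were 0, against 2 with 75th percentile scaling (1 with array row as a block), median scaling or quantile normalization and 3 with a replicate block. Over probes, deviations of same-numbered mice from their group means had correlations of 0.196, 0.042, -0.073 and 0.0071. For sham-operated mice 1 to 4, the highest correlation with an MI mouse of another number was larger, at 0.325, 0.160, 0.119 and 0.101. Such correlations cannot show a shift shared by all probes of an array. After spike-in scaling, the median of all retained probes relative to the sham mean was 0.30, -0.30, 0.40 and 0.062 in MI mice 1 to 4. In sham-operated mice 1 to 4 it was 0.17, -0.31, 0.18 and -0.053, so that replicate 2 was the lowest of both groups. The labels do not tie the numbers to a pairing, and the replicate block is one more covariate. The cause of the differences between these counts of calls was not tested.

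With 1 mouse left out, under either scaling, 1347 to 6260 probes were called, 0 to 10 of the 41 genes lower and 0 to 3 higher, and 0 to 20 further genes lower and 0 to 4 higher. Pdk4 was -0.078 with 75th percentile scaling, with or without a block, -0.079 with median scaling and -0.028 with quantile normalization. Rxra was -0.093 with 75th percentile or median scaling, -0.059 with normexp, -0.13 with quantile normalization and -0.0050 with vsn. Log2 fold changes that changed sign without 1 mouse ranged from -0.36 to 0.13 for Slc27a1, -0.28 to 0.037 for Fabp3, -0.40 to 0.024 for Cpt1a, -0.36 to 0.053 for Slc25a20, -0.030 to 0.40 for Acads, -0.074 to 0.36 for Hadha, -0.35 to 0.0086 for Hadh, -0.10 to 0.33 for Pdk2, -0.36 to 0.29 for Pdk4, -0.29 to 0.11 for Dgat2, -0.48 to 0.0041 for Plin5, -0.36 to 0.082 for Ppara, -0.69 to 0.16 for Ppargc1a, -0.26 to 0.32 for Rxra and -0.26 to 0.21 for the ratio of Pdk4 to Pdk2.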
